A study of Mus musculus with 4 samples.

Results

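The 35 genes described here encode the enzymes and regulators with which a cell makes cholesterol and fatty acids. They were taken from the arrays by gene symbol, and all 35 were well above background on every array, among 20655 genes that were. Each gene is given by its brightest probe on the 4 arrays. By role they were 6 regulators, 13 enzymes of cholesterol synthesis, 5 enzymes that supply acetyl-CoA or build fatty acids from it, 8 desaturases and elongases, and 3 genes of lipid handling.

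The brain makes nearly all of its own cholesterol, because lipoproteins of the blood hardly cross the blood-brain barrier, and glia and neurons share that work. Transcription of the pathway is set mainly by SREBP proteins, the products of Srebf1 and Srebf2, which the escort protein Scap carries out of the endoplasmic reticulum when sterols are low and which Insig proteins hold back when sterols are plentiful. Fatty acid synthesis is driven by SREBP-1c and, in response to sugar, by ChREBP, the product of Mlxipl.

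The RNA came from the prefrontal cortex of 3-month-old mice of strain B6J. One genotype was wild-type and the other was heterozygous at Glo1, which encodes glyoxalase 1, an enzyme that clears methylglyoxal. From postnatal day 21 the animals were fed for some 70 days on food with either starch or sucrose. Each of the 4 combinations of diet and genotype was represented by a pool of RNA from 3 mice on 1 one-colour array, and the wild-type starch group was the control. The labels do not say how the Glo1 allele was made or of which sex the mice were. Since a group had 1 array, a difference between arrays has no error between mice and no p-value of its own, and position on the slide cannot be told apart from group. In a bulk sample, fewer cells of a type and less RNA per cell cannot be told apart either.

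Signals are given as multiples of each array's 75th percentile, and differences on the scale of their log2 values. A Glo1 signal of 4.04 and 5.53 on the wild-type starch and sucrose arrays stood against 2.74 and 3.04 on the heterozygous ones, so the labels and the targeted gene went together. The only measured error was that of repeated spots within an array: for the difference of a spot between arrays its SD was 0.068 in the brightest of 4 equal classes of probes (291 repeated probes), where 25 of the 35 genes lay, and 0.118 in the next class (5 repeated probes), which held the other 10. Markers of other tissue differed between the arrays. All 8 excitatory neuron markers were detected, with summed levels from 33.1 to 41.8, but the summed level of 7 detected choroid plexus markers of 8 was 0.884, 2.09, 0.826 and 68.9 on the wild-type starch, wild-type sucrose, heterozygous starch and heterozygous sucrose arrays. That of 9 striatal markers was 34.1, 55.9, 52.2 and 29.3 in the same order, and that of 12 oligodendrocyte markers was 138, 131, 145 and 135. Blood markers summed to 164, 76.4, 137 and 87.5. Only markers well above background on every array were read, so none of them could be at 0.

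Promoter sequences from RefSeq (build GRCm38.p6) were at hand for 28 of the 35 genes, in 38 windows of 250 bases before a transcription start. The windows are shown for 4 genes to which the results return: Hmgcs1, a classical SREBP target, Ebp and Nsdhl, which differed with diet in opposite directions, and Elovl7, the gene with the widest range. Capitals mark a CCAAT box (ATTGG where it is read on the other strand) or the sterol regulatory element form TCACNCCAC. They lie at chr13:119690101-119690350 (plus strand), chrX:8193513-8193762 (minus strand), chrX:72918271-72918520 (plus strand) and chr13:108214154-108214403 (plus strand).
Hmgcs1: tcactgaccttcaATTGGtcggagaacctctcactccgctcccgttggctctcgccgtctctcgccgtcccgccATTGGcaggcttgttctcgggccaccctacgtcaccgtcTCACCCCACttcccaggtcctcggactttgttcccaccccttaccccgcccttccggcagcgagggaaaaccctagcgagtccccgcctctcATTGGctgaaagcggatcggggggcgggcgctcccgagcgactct
Ebp: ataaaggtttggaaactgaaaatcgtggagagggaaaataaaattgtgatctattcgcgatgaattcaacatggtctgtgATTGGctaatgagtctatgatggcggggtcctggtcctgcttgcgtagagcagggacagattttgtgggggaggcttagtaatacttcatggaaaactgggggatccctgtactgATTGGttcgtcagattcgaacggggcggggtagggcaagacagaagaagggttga
Nsdhl: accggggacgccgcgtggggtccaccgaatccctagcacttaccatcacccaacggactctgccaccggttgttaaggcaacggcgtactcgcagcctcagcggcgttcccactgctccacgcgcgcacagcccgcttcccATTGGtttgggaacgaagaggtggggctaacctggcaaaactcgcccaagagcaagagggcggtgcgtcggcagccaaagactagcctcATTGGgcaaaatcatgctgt
Elovl7: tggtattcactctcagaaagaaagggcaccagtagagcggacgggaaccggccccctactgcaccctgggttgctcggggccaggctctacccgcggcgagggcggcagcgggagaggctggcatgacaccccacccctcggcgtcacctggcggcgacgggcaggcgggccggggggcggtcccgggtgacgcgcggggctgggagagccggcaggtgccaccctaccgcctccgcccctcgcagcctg

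Hmgcs1 held the sterol element, starting 137 bases before its start site, and 3 CCAAT boxes, whereas Ebp and Nsdhl had 2 CCAAT boxes each and no sterol element in these letters. The Elovl7 window held no match to any motif searched. Over all 38 windows, searched on both strands, 22 (57.9%) held CCAAT, against 33.8% of 32851 RefSeq promoter windows of the same length. TCACNCCAC was in 2 windows (5.26%, of Hmgcs1 and Mlxipl) against 1.05%, the E-box CACGTG in 5 (13.2%) against 6.02%, and the full sterol regulatory element SRE-1, which contains a form of TCACNCCAC, in 0 against 0.0731%. These matches describe the letters and not binding.

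Read by their brightest probes, the genes of the set varied little. The highest of a gene's 4 signals exceeded its lowest by 1.08-fold to 1.61-fold, with a median of 1.17-fold. Only Elovl7 spanned 1.5-fold or more, 1 of 35 genes (2.86%), where 14.7% of all genes tested did. Of the 5164 genes with the brightest probes, to which 19 of the 35 belonged, 2.48% did. A smaller threshold, 0.32 on the log2 scale, was spanned by 5 of 35 (14.3%), namely Mlxipl, Nsdhl, Ebp, Acacb and Elovl7, against 39.5% of all genes and 13.1% of the brightest ones. None spanned 2-fold, where 4.16% of all genes and 0.368% of the brightest did. The shares of the set were thus near those of the brightest genes. In the figures a difference of log2 values is named a log2 change.

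**Figure D1:**
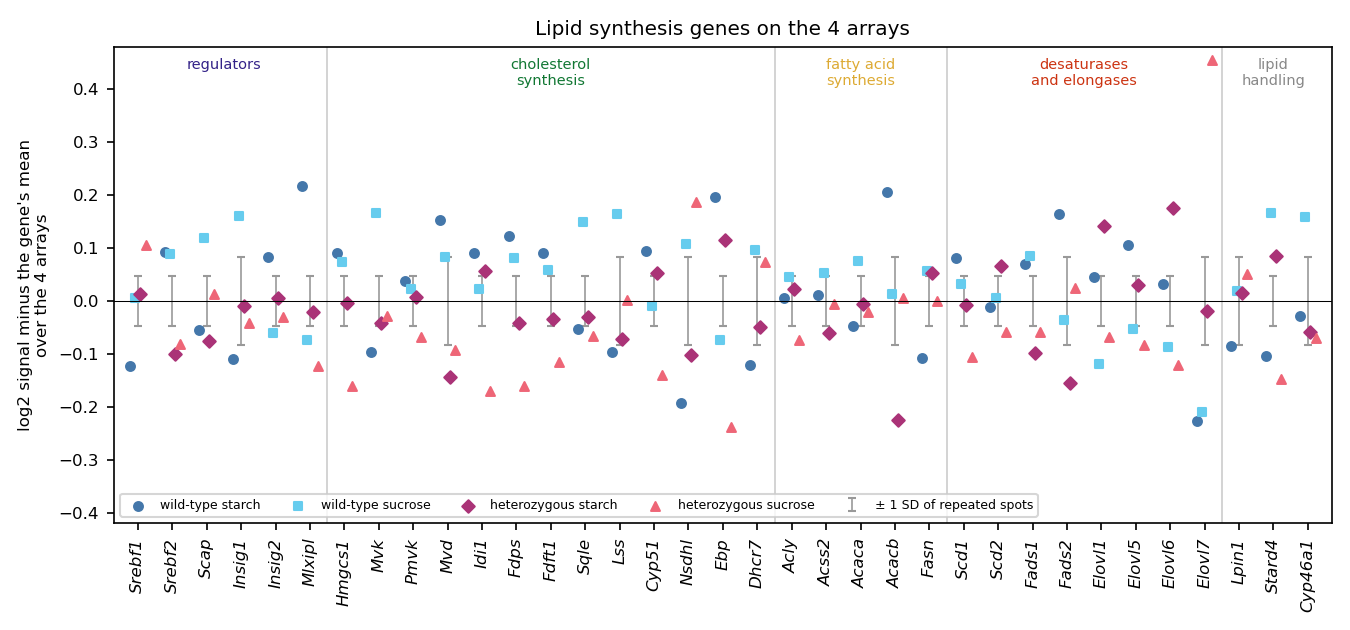
Each point is the log2 signal of a gene on 1 array minus that gene's mean over the 4 arrays, with genes grouped by role along the horizontal axis and grey bars showing ± 1 SD of single repeated spots of that brightness class. Of 140 points 133 lie within 0.2 of 0, and the heterozygous sucrose value of Elovl7 stands apart at the top.

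Sucrose against starch asks whether the diet moved the lipid genes. In wild-type mice 18 genes were higher and 17 lower on sucrose, with a median difference of 0.02 against 0.00 over all genes. None of the 35 passed 1.5-fold, where 5.93% of all genes and 0.93% of the brightest genes did, and none passed 0.32, where 19.3% and 5.75% did. With the mean over a gene's probes 1 gene, Fads1, passed 0.32 (0.41). In heterozygous mice 14 were higher and 21 lower, with a median of -0.04, and 60.0% of the set was lower, against 49.9% of all genes and 60.1% of the brightest. Again none passed 1.5-fold (5.57% of all genes and 0.833% of the brightest), and 2 passed 0.32, Elovl7 higher and Ebp lower (15.7% and 3.8%). The diet differences of the genotypes rest on different arrays. On sucrose 10 genes were higher in both genotypes and 13 lower in both, which is 65.7% of the set against 60.3% of all genes. None of the 35 reached 0.32 in both genotypes, as 2.86% of all genes did upwards and 2.58% downwards (0.484% and 0.794% of the brightest), though Fads1 did with the mean over its probes (0.41 and 0.38). In 14 of 35 genes (40%) both sucrose arrays lay on one side of both starch arrays, which was near the 42.2% of all genes and 41.4% of the brightest.

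Heterozygous against wild-type asks the same of the genotype. On starch 16 genes were higher and 19 lower in heterozygous mice, with a median of -0.03 against -0.02 over all genes. None passed 1.5-fold (3.97% of all genes, 0.542% of the brightest) and Acacb alone passed 0.32 (14.9% and 2.94%). On sucrose 7 were higher and 28 lower, with a median of -0.11 against -0.02. The share lower was 80.0% of the set, 54.9% of all genes and 69.9% of the brightest genes. Elovl7 passed 1.5-fold on sucrose, the single gene that did (4.58% and 0.407%), and no other passed 0.32 (13.6% and 2.92%). None reached 0.32 on both diets in one direction, as 1.18% of all genes did upwards and 1.34% downwards (0.0775% and 0.136% of the brightest). The arrays of the genotypes did not overlap in 13 of 35 genes (37.1%), 2 higher and 11 lower in heterozygous mice. That share was near those of all genes (34.7%) and of the brightest (37.5%), so a lack of overlap in a single gene below is a description only.

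The array with both factors was also set against the control array, a comparison that reuses arrays of those above. In it Elovl7 passed 1.5-fold (7.32% of all genes, 1.26% of the brightest), and Nsdhl (0.38), Ebp (-0.44) and Mlxipl (-0.34) also passed 0.32 (21.6% and 7.47%). No gene of the set passed 2-fold in any comparison. For all genes that share was 1.48% and 1.77% for diet in wild-type and heterozygous mice, 0.813% and 1.71% for genotype on starch and sucrose, 2% for both factors and 2.88% for the interaction defined further on. Among the brightest genes it was 0.116%, 0.136%, 0.0387%, 0.136%, 0.194% and 0.194% in that order.

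**Figure D2:**
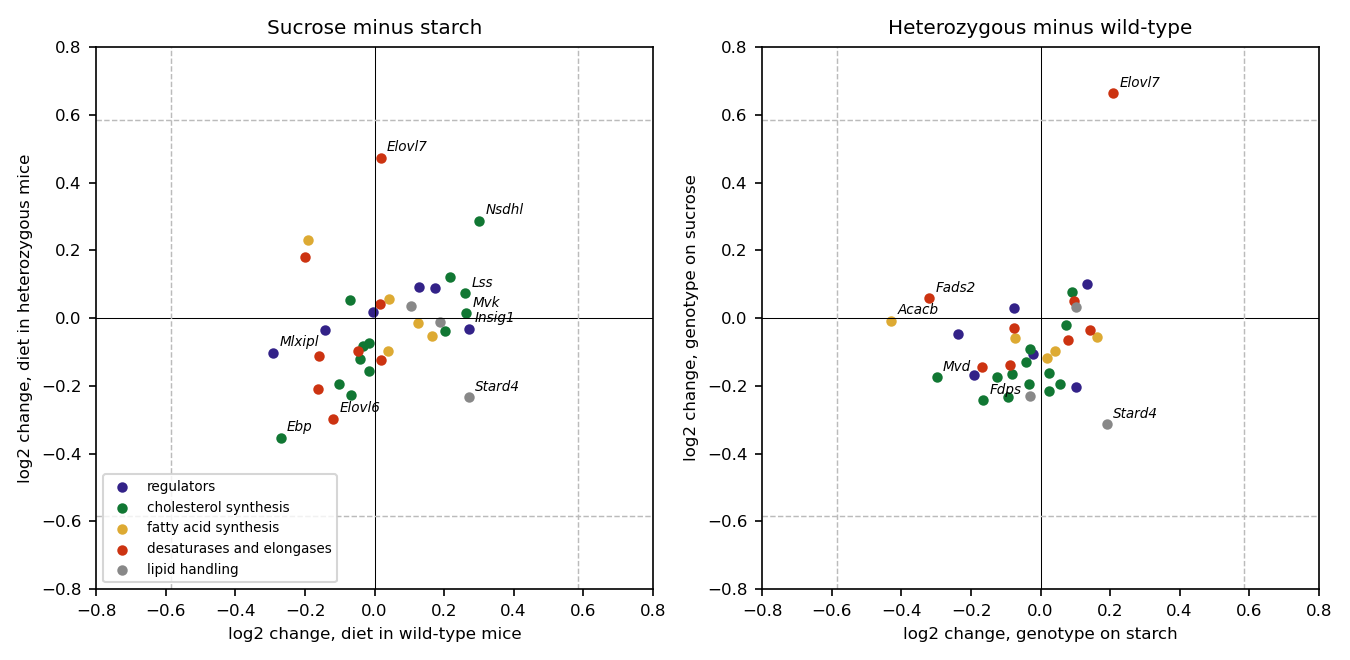
Each point is a gene, with the log2 change of 1 pair of arrays on the horizontal axis and that of the other pair on the vertical axis, for diet on the left and for genotype on the right. Dashed lines mark 1.5-fold, which Elovl7 alone crosses, for genotype on sucrose, and 28 of 35 points on the right lie below the horizontal line.

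Among the regulators, the largest difference was that of Mlxipl, the gene of ChREBP, the factor that responds to glucose metabolites. Its signal was 3.30 on the control array, then 2.70 with sucrose, 2.80 with the heterozygous genotype and 2.61 with both. The control array was thus the highest, and the other 3 lay close together. The diet difference was -0.29 (wild-type) and -0.10 (heterozygous), and the genotype difference -0.24 on starch and -0.05 on sucrose. Its other probes gave diet differences of -0.28 and -0.06 in wild-type mice and -0.19 and -0.10 in heterozygous mice, but their genotype differences were positive on both diets, from 0.05 to 0.24.

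The SREBP genes differed by less. Srebf1, which encodes both SREBP-1 forms and was measured by a single probe, had signals of 4.67, 5.11, 5.13 and 5.47 in the order wild-type starch, wild-type sucrose, heterozygous starch, heterozygous sucrose, which is kept below. The signal was lowest on the control array and highest where both factors were present. Its differences ran from 0.09 to 0.13 in the diet and genotype comparisons. Srebf2, whose product drives the cholesterol branch, had signals of 4.27 and 4.26 on the wild-type arrays and of 3.74 and 3.79 on the heterozygous ones. The genotypes did not overlap in Srebf2, nor in Srebf1, and Srebf2 had differences of -0.19 on starch and -0.17 on sucrose, while both diet differences lay within 0.02 of 0. A second, dimmer Srebf2 probe gave -0.11 and -0.06 for genotype.

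Scap and the Insig genes encode the proteins that release or retain SREBP. Scap had signals of 9.29, 10.5, 9.15 and 9.74, higher on sucrose by 0.17 and, in the heterozygous pair, by 0.09. Insig1, itself an SREBP target and a sensitive sign of the pathway's activity, had signals of 0.231, 0.278, 0.247 and 0.242. It was highest on the wild-type sucrose array, with a diet difference of 0.27 there and of -0.03 in heterozygous mice. Insig1 was measured by a single dim probe, in the class whose repeated spots had an SD of 0.118. Insig2, the form less dependent on SREBP, had signals of 4.98, 4.50, 4.71 and 4.60, and its 3 probes all read lower on sucrose, with -0.24 to -0.14 for the wild-type pair and -0.05 to -0.02 for the heterozygous pair.

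In cholesterol synthesis Ebp and Nsdhl had the widest diet differences on average over the genotypes, and these pointed in opposite directions. Ebp, the sterol isomerase of the later pathway (probe on chromosome X, 7762463 to 7762522, build mm9), had signals of 5.86 and 5.53 on starch and of 4.86 and 4.33 on sucrose in wild-type and heterozygous mice. Both sucrose arrays lay below both starch arrays, with differences of -0.27 and -0.35, and its second probe gave -0.21 and -0.20. Nsdhl, which removes a methyl group from the sterol ring (chromosome X, 70203236 to 70203295, mm9), had signals of 0.628 and 0.669 on starch and of 0.774 and 0.817 on sucrose. It was higher on both sucrose arrays, by 0.30 and 0.29, but its second probe, at signals of 0.112 to 0.147, gave -0.40 and -0.27. The direction of Nsdhl therefore depended on the probe, and that of Ebp did not.

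Dhcr7, which makes cholesterol from its last precursor in the Kandutsch-Russell branch, had signals of 0.323 and 0.340 on starch against 0.375 and 0.370 on sucrose. Its diet differences were 0.22 and 0.12. The other enzymes of the pathway showed no common direction with diet in wild-type mice. Mvk (mevalonate kinase) differed by 0.26, Lss (lanosterol synthase) by 0.26 and Sqle (squalene epoxidase, a rate-limiting step) by 0.20. In heterozygous mice these differed by 0.01, 0.07 and -0.04. The second Mvk probe gave 0.04 in wild-type mice, and the other Lss probes gave 0.23 and -0.04. In contrast, Idi1 (isopentenyl diphosphate isomerase; 4.03, 3.85, 3.94 and 3.36) differed by -0.07 and -0.23 and Cyp51 (lanosterol demethylase; 2.14, 1.99, 2.08 and 1.82) by -0.10 and -0.19. A dimmer second Cyp51 probe gave -0.01 and -0.08. Of the 13 enzymes 5 were higher and 8 lower on sucrose in both genotypes taken separately, with medians of -0.02 and -0.07. Among all genes 50.1% and 49.9% were lower in wild-type and heterozygous mice, and among the brightest 44.3% and 60.1%.

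With genotype on sucrose these enzymes were lower almost throughout. In heterozygous mice 12 of 13 had a lower signal than in wild-type mice, where 54.9% of all genes and 69.9% of the brightest did. The median was -0.17, against -0.02 over all genes and -0.05 over the brightest genes. Fdps (farnesyl diphosphate synthase) had signals of 6.64 and 6.44 on the wild-type arrays and of 5.92 and 5.45 on the heterozygous ones, differences of -0.17 on starch and -0.24 on sucrose. Hmgcs1, the synthase at the head of the mevalonate pathway, had signals of 25.7, 25.4, 24.1 and 21.6 and genotype differences of -0.09 and -0.23. A dim second Hmgcs1 probe, at 0.0339 to 0.0514, gave -0.40 and -0.36. By their brightest probes both genes were highest on the control array and lowest where both factors were present.

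Fdft1 (squalene synthase, the step that commits carbon to sterols) followed the same order at 9.67, 9.45, 8.86 and 8.37, with differences of -0.13 and -0.17, and its second probe gave -0.26 and -0.27. Mvd, the decarboxylase that makes isopentenyl diphosphate, was lower on both heterozygous arrays too, at 0.509 and 0.527 against 0.625 and 0.595, with differences of -0.30 on starch and -0.17 on sucrose. Among the 13 enzymes the genotypes did not overlap in Hmgcs1, Pmvk, Mvd, Fdps and Fdft1. The same held for 34.7% of all genes and 37.5% of the brightest. Sqle (5.68, 6.54, 5.77 and 5.63), Mvk (3.51, 4.22, 3.65 and 3.68) and Lss (1.103, 1.32, 1.12 and 1.18) showed another order. In the brightest probes of these the wild-type sucrose array was the highest and the other 3 lay close together, so that the genotype difference was -0.22, -0.19 and -0.16 on sucrose and 0.02, 0.06 and 0.02 on starch. The other probes differed in part. For genotype on starch and sucrose the second Mvk probe gave -0.11 and -0.08, while 1 Lss probe gave 0.18 and -0.04 and another -0.03 and 0.00. Idi1 (-0.19), Cyp51 (-0.13), Ebp (-0.17), Pmvk, the phosphomevalonate kinase (-0.09, with signals from 8.74 to 9.41), and Dhcr7 (-0.02) completed the 12, and Nsdhl was 0.08 higher. For Cyp51 a dimmer second probe gave -0.20 on starch and -0.27 on sucrose, where the brightest gave -0.04 and -0.13.

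On starch the same enzymes had 5 higher and 8 lower values in heterozygous mice, with a median of -0.03. Of all genes 54.0% were lower there, and of the brightest 51.6%. In the interaction, which subtracts the wild-type diet difference from the heterozygous one, 12 of 13 were negative, with a median of -0.09. Of all genes 49.5% and of the brightest 63.1% were negative, with medians of 0.00 and -0.05. The interaction reuses the sucrose arrays of the genotype difference above, so the counts of 12 of 13 are not independent. None of the 35 genes passed 1.5-fold in the interaction (8.45% of all genes, 1.05% of the brightest), and 4 passed 0.32 (22.4% and 6.06%), namely Elovl7 (0.46), Acacb, Fads2 and Stard4. In the last 3 of these the diet differences also had opposite signs in the genotypes, as they did in 14.9% of all genes and 4.28% of the brightest under the same rule. Other transcripts differed between the same sucrose arrays. Choroid plexus markers were higher in heterozygous mice in 7 of 7 genes (median 3.90), oligodendrocyte markers in 11 of 12 (median 0.13), while excitatory neuron markers were lower in 5 of 8 (median -0.23) and striatal markers in 9 of 9 (median -1.21). Blood markers were higher in 5 of 5 (median 0.32) and endothelial ones in 5 of 6 (0.10), and microglial ones were lower in 6 of 7 (-0.07). Astrocyte markers were higher in 5 of 10 (median 0.00, summed levels 163 and 155 on the wild-type and heterozygous arrays), with Gfap 1.16 higher. The part of these in the result was not tested.

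Among the genes that make fatty acids from acetyl-CoA, 4 of 5 differed little. Fasn, the fatty acid synthase, had signals of 30.6, 34.3, 34.2 and 33.0, with the control array the lowest and differences between -0.06 and 0.16 in the diet and genotype comparisons. Acaca, the cytosolic acetyl-CoA carboxylase that sets the rate of synthesis, had 6.13, 6.68, 6.31 and 6.25. Acly, which splits citrate into acetyl-CoA, had 12.62, 12.97, 12.78 and 11.95, and Acss2, which makes acetyl-CoA from acetate, had 2.38, 2.45, 2.26 and 2.35. The arrays differed by at most 1.12-fold in these 4 genes. Each was highest on the wild-type sucrose array, and Fasn and Acaca had the same order of all 4 arrays. That holds for the brightest probes. The second Acly probe, at signals of 0.0724 to 0.112, gave 0.31 and 0.35 for diet in wild-type and heterozygous mice. A dim Acaca probe (0.0828, 0.0477, 0.0515 and 0.0452) gave -0.80 for diet in wild-type mice, while another (0.0186, 0.0231, 0.0245 and 0.0275) gave 0.31. For genotype on starch the other Acss2 probes, all dimmer, gave 0.55, 0.41 and -0.31, where the brightest gave -0.07.

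Acacb was the exception. It encodes the mitochondrial carboxylase, whose malonyl-CoA restrains fatty acid oxidation, and its probe lies on chromosome 5, 114667674 to 114667733 (mm9). Signals were 0.460, 0.403, 0.342 and 0.401, highest on the control array and lowest on the heterozygous starch array. The genotype difference was -0.43 on starch and -0.01 on sucrose, and the diet difference was -0.19 for wild-type mice and 0.23 for heterozygous ones. The other 2 probes of Acacb gave diet differences of -0.48 and -0.24 in wild-type mice and of 0.37 and 0.23 in heterozygous mice, so all 3 probes had opposite signs in the genotypes. For genotype on sucrose these 2 probes gave 0.47 and 0.19, unlike the brightest, and on starch -0.39 and -0.28. Its interaction was 0.42 for the brightest probe and 0.86 and 0.48 for the others.

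Desaturases introduce double bonds into fatty acids and elongases lengthen them. Elovl7, an elongase of long saturated chains (probe on chromosome 13, 109073556 to 109073615, mm9), had signals of 0.920, 0.932, 1.06 and 1.48. The last array stood above the other 3. In heterozygous mice Elovl7 was 0.47 higher on sucrose than on starch, whereas the wild-type difference was 0.02, and the genotype difference was 0.21 on starch and 0.66 on sucrose. A single probe measured it. The heterozygous sucrose array was also the array with the high choroid plexus markers given above, and their part in the Elovl7 value was not tested.

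By their brightest probes Elovl6, Elovl1 and Elovl5 were lower on sucrose in both genotypes. Elovl6, which extends palmitate to stearate, had signals of 3.61 and 3.98 on starch and of 3.32 and 3.24 on sucrose, differences of -0.12 and -0.30. For Elovl1, which makes very long saturated chains, signals of 4.404 and 4.709 on starch stood against 3.93 and 4.07 on sucrose, differences of -0.16 and -0.21, and its second probe gave -0.44 and -0.15. Elovl5, which extends polyunsaturated chains, had 3.73 and 3.54 against 3.34 and 3.28, differences of -0.16 and -0.11. The diets did not overlap in these brightest probes, nor in 42.2% of all genes and 41.4% of the brightest. The diets did overlap in a dim second Elovl5 probe (0.0222, 0.0167, 0.0181 and 0.0191), whose differences were -0.41 and 0.08.

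Of the stearoyl-CoA desaturases, Scd2, the form that prevails in brain, had signals of 42.6, 43.1, 44.9 and 41.2, and Scd1 had 2.31, 2.23, 2.17 and 2.03. They are close relatives and neighbours on chromosome 19, and cross-hybridisation between them was not tested. Fads1 and Fads2, the delta-5 and delta-6 desaturases of polyunsaturated fatty acids, lie on the same chromosome and had probes that disagreed. The brightest Fads1 probe had 2.55, 2.57, 2.27 and 2.33, with genotype differences of -0.17 and -0.14. Its other probes were at 0.595, 0.865, 0.853 and 0.920, and at 0.0609, 0.0983, 0.0943 and 0.188, lowest on the control array. Between heterozygous sucrose and wild-type starch these 2 probes gave 0.63 and 1.63, where the brightest gave -0.13. With the mean over its probes in place of the brightest, Fads1 was 0.71 higher there and passed 1.5-fold.

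The brightest Fads2 probe had 0.881, 0.767, 0.706 and 0.799, with diet differences of -0.20 (wild-type) and 0.18 (heterozygous). Another 2 probes of Fads2 had the same order of arrays, with diet differences of -0.48 and -0.54 for wild-type and of 0.17 and 0.28 for heterozygous mice. One more probe, annotated to a RIKEN cDNA, ran the other way at 0.182, 0.334, 0.344 and 0.410, with diet differences of 0.88 and 0.26, and the last one read 0.0771 to 0.0802. No value of Fads1 or Fads2 thus stands for every transcript of its gene.

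**Figure D3:**
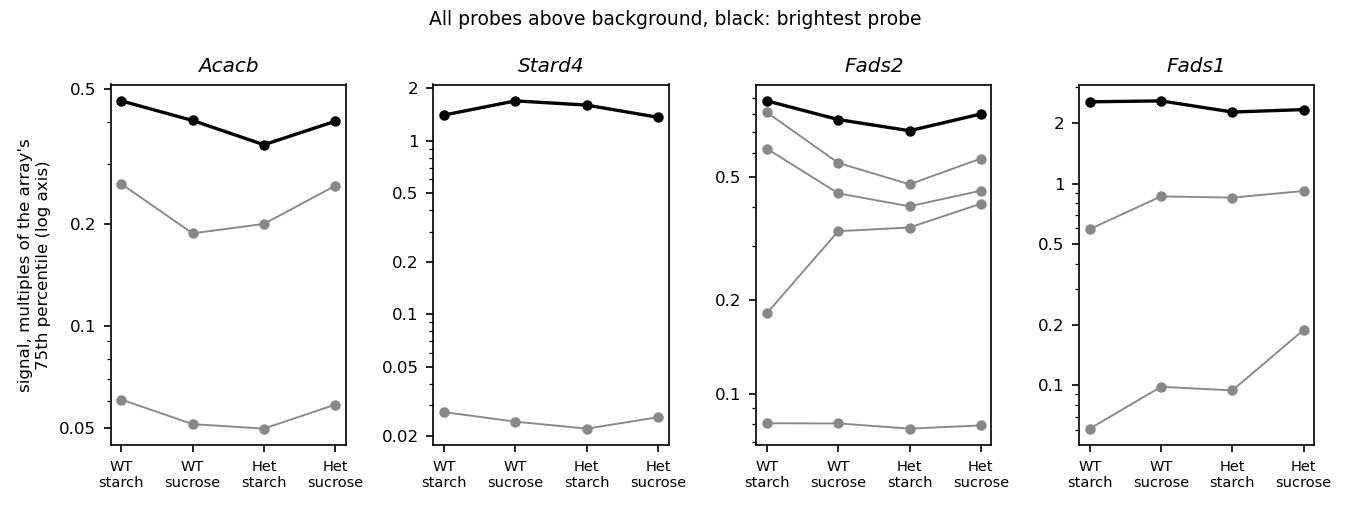
Signals of all probes well above background on the 4 arrays for Acacb, Stard4, Fads2 and Fads1, as multiples of the array's 75th percentile on a log axis, with the brightest probe in black and the others in grey. The lines of the 3 Acacb probes share the sign of each diet difference but not the lowest array, while those of Fads1 and Fads2 cross in direction and the dim Stard4 probe mirrors the bright one.

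Stard4, a cytosolic carrier of cholesterol and an SREBP target, had signals of 1.405, 1.694, 1.603 and 1.363. Its diet difference was 0.27 for wild-type mice and -0.23 for heterozygous ones, which gave the most negative interaction of the set, -0.50. A second Stard4 probe at signals of 0.0220 to 0.0274 gave -0.18 and 0.22. Cyp46a1, the neuronal enzyme that turns cholesterol into its exportable 24-hydroxy form, had 0.6586, 0.7501, 0.6448 and 0.6397, highest on the wild-type sucrose array. Lpin1, a phosphatidate phosphatase that also acts as a coregulator of transcription, had 0.523, 0.563, 0.561 and 0.575, and its other probes, all dimmer, gave the genotype difference on starch as -0.52, 0.33 and -0.00 where the brightest gave 0.10.

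Other genes of the pathway were read from lists of further genes. Of 9 further cholesterol synthesis genes 8 were measured and none passed 1.5-fold in any pairwise comparison. With genotype on sucrose 7 of these 8 were lower, with a median of -0.12, beside the 54.9% of all genes and 69.9% of the brightest given above. On starch 5 of 8 were lower (-0.02), against 54.0% and 51.6%. For 16 genes of sterol transport and storage, which include liver X receptors and the efflux pumps they control, the median was 0.05 with genotype on sucrose (12 of 16 higher, against 45.1% of all genes and 30.1% of the brightest) and -0.01 and 0.02 with diet in wild-type and heterozygous mice. None of the 16 passed 1.5-fold. Among 19 further genes of fatty acid and triglyceride synthesis only Lpin3, another phosphatidate phosphatase, passed 1.5-fold in a pairwise comparison, with -0.70 for diet in wild-type mice at signals of 0.11 or less. Fatty acid oxidation genes were lower on sucrose in 12 of 15 cases in wild-type mice (median -0.10), where 50.1% of all genes and 44.3% of the brightest were lower. In heterozygous mice 9 of 15 were lower (median -0.04), against 49.9% and 60.1%. Between the wild-type arrays blood markers were also lower on sucrose in 5 of 5 (median -1.58) and oligodendrocyte markers in 10 of 12 (-0.10). So were astrocyte markers in 7 of 10 (-0.13), endothelial ones in 4 of 6 (-0.20) and microglial ones in 5 of 7 (-0.17). Excitatory neuron markers were higher in 8 of 8 (0.27), striatal markers in 9 of 9 (0.88) and choroid plexus markers in 6 of 7 (0.40). Their part in the result was not tested. None of the oxidation genes passed 1.5-fold in a pairwise comparison.

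An additive model of diet and genotype could be fitted to the 4 arrays with limma, leaving 1 residual degree of freedom and taking the interaction as error. At a Benjamini-Hochberg adjusted p under 0.05 limma called 0 of the 35 genes and 0 of 20655 genes for either factor. For diet the smallest adjusted p of the set was 0.443, in Ebp and Nsdhl, and these 2 genes (5.71% of the set) had an unadjusted p under 0.05 in limma, where 10.4% of all genes did. For genotype the smallest adjusted p was 0.735, and 0 genes of the set had an unadjusted limma p under 0.05, where 6.16% of all genes did.

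**Figure D4:**
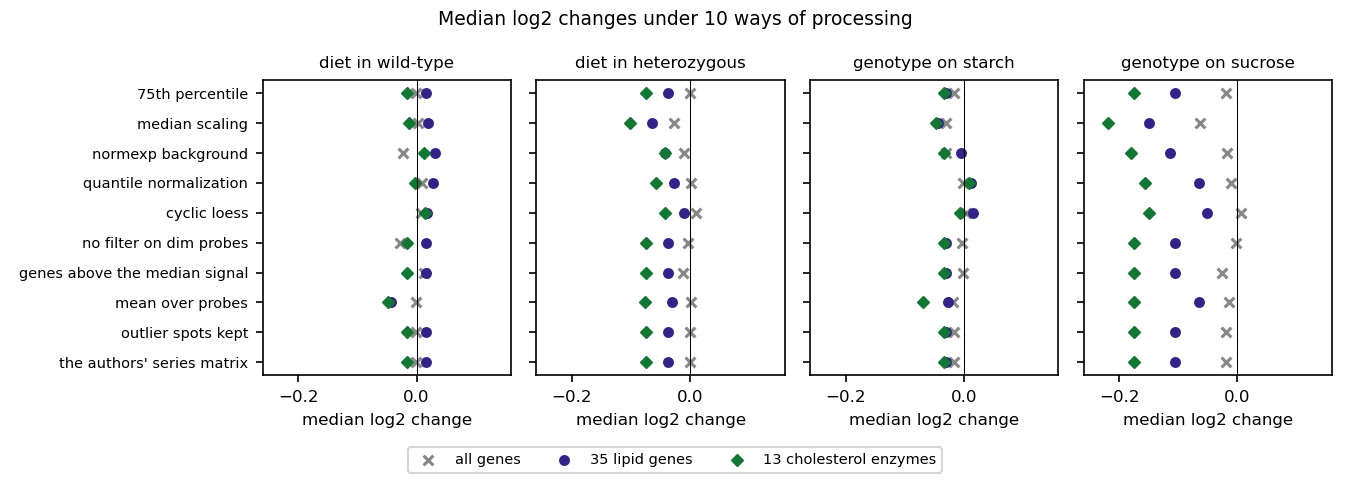
Median log2 change of all genes, of the 35 lipid genes and of the 13 cholesterol enzymes in the diet and genotype comparisons, under the 75th percentile scaling used here and 9 alternatives. In the panel of genotype on sucrose the cholesterol enzymes lie between -0.22 and -0.15 in every row, to the left of all genes.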

How the data were processed

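Total RNA of 3 mice a group was pooled and 200 ng labelled with Cy3, per the labels' protocols. The deposited intensity values came from Agilent Feature Extraction 11.5.1.1, per the submitters' processing notes; per the file headers it subtracted background with spatial detrending and detrended signals within the array. The authors also deposited a series matrix of 1 ratio per spot, which equalled the processed signal over 1 divisor for each array. From the intensities log2 values were computed, minus log2 of the 75th percentile over 59305 non-control spots (1780 to 1929 units). Outlier spots were left out, repeated spots averaged, and 42094 of 56605 probes kept that were well above background on all 4 arrays (77.6% to 80.2% of spots were, for each array; no spot was saturated). A gene is its brightest probe; probe coordinates are the files', on mm9. Groups came from the sample titles.

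Genes were counted past 0.32 (log2), 1.5-fold and 2-fold. Every gene past 1.5-fold, the 3 highest and lowest of each comparison, all regulators and genes reaching 0.32 in parallel (there were 0) were to be named, and the others are given for completeness. The members and lists were chosen with earlier results of these data known. Tools were R 4.3.3, limma 3.58.1, Python 3.11.15 and pandas 2.3.3. Scripts were tested on simulated data. Motifs were searched in the 250 bases before each RefSeq start. Alternatives were median scaling, normexp background (offset 50), quantile and cyclic loess normalisation, other probe filters, the mean over probes, outlier spots kept, the series matrix and, for limma, a trended prior.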

Additional observations from a re-analysis of the deposited data

Results flagged for a closer look

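The diet difference had opposite signs in the genotypes, and these were at least 0.32 apart on the log2 scale, in 3 of the 35 genes, against 14.9% of all genes and 4.28% of the brightest. This difference was not tested, since each group had 1 array. The interaction was -0.50 in Stard4, where the second, dim probe had the opposite sign. In Acacb it was 0.42 and positive in all 3 probes. In Fads2 it was 0.38, with 3 of 5 probes in the same order, 1 flat probe and 1 probe whose interaction was -0.62.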

How the results depend on the processing

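Over 9 alternatives the count of genes of the set past 1.5-fold moved in 1 place: with the mean over a gene's probes, 2 genes in place of 1, Fads1 (0.71) and Elovl7, passed for both factors together. Counts past 0.32 are given here where they changed by more than 1.5-fold or from 0. With the mean over probes they went from 0 to 1 for diet in wild-type mice and from 4 to 2 for the interaction. They went from 1 to 2 for genotype on starch with median scaling, cyclic loess or the mean over probes. The same held for genotype on sucrose with median scaling. Smaller changes are not all listed, such as from 2 to 3 for diet in heterozygous mice with median scaling. The number of genes lower in heterozygous mice on sucrose ran from 24 (mean over probes) to 30 (median scaling) of 35, and their median from -0.15 to -0.05. For cholesterol synthesis 12 of 13 stayed lower there under each alternative. The other probe filters, outlier spots kept and the series matrix hardly changed these values (median -0.17 in each). Every alternative rests on the same arrays. Medians near 0 took either sign, those of genotype on starch between -0.04 and 0.02 and those of diet in wild-type mice between -0.04 and 0.03. No scaling moved the median of all genes by 0.1. Of 210 values of single genes 55 moved by more than the spread of repeated spots with the mean over probes, 13 with quantile or loess normalisation, 1 with normexp and 0 under the other alternatives. The limma counts stayed at 0 for the set and for all genes in every alternative, a trended prior included, while the genes of the set with an unadjusted p under 0.05 numbered 0 to 5 for diet and 0 to 6 for genotype. The smallest adjusted p of the set ran from 0.197 to 0.732 for diet and from 0.607 to 0.776 for genotype. No paired analysis was possible because each group had 1 array.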
